A study of Mus musculus with 6 samples.

Results

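This report describes 35 endothelial and angiogenesis genes in mammary tumours of 2 mouse crosses. The genes were listed by name for their roles in vessels, and a probe set was kept where the platform annotation gives it that symbol alone. In this way 34 of the 35 genes were measured, by 52 of 22626 probe sets, out of 12393 genes in all. Gpihbp1, which carries lipoprotein lipase to the capillary surface, had no such probe set and is not analysed here. The 6 samples were tumours of adult F1 females whose parents were PyMT mice on 1 side and the inbred strain AKR/J (3 samples, AKR F1) or DBA/2J (3 samples, DBA F1) on the other. Both groups therefore come from crosses with PyMT, the polyomavirus middle T antigen transgene, which drives mammary tumours. The labels name neither the promoter of the transgene nor a treatment. They also do not state that each tumour had an animal of its own, and the p-values then cover only the spread among these samples, which may be technical.

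Blood vessels in a tumour grow from existing vessels when ligands of the VEGF family bind receptors on endothelial cells, which then sprout and divide. Angiopoietins act through the receptor Tek to steady or loosen the new vessels, and ETS and SOX family transcription factors hold the endothelial programme in place. Lymphatic vessels use a sister pair of ligand and receptor, Vegfc and Flt4. In whole tumour RNA a lower value can mean fewer endothelial cells or less RNA per cell, and these cannot be told apart.

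All values are log2 expression per probe set, and each gene is described at its probe set with the highest mean over the 6 arrays. Differences are AKR F1 minus DBA F1, values with ± carry the SD of the 3 arrays in a cross, and tests are limma's with Benjamini-Hochberg adjustment over all 22626 probe sets. The array medians ran from 7.52 to 7.57, while the SD of all values ran from 1.76 to 1.91 on AKR F1 arrays and from 1.98 to 2.02 on DBA F1 arrays. Beside this, probe sets sorted into 10 classes (deciles) by mean level had median differences between 0.23 (decile 3) and -0.21 (decile 10), and a decile's median is given beside several of the differences. AKR replicate 2, with an SD of 1.76, was the highest array for 32.3% and the lowest for 35% of all genes, more often at both ends than any other array. DBA replicate 1 carried the most skeletal muscle and adipocyte transcripts.

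None of the 52 probe sets passed an adjusted p of 0.05, where 0.0972% of all probe sets did, 22 in number (0.0565% of genes at their brightest probe set). Under array weights limma called 12 of the 52 higher in AKR F1 and 8 higher in DBA F1 tumours, where it called 9969 of all 22626 probe sets. Those weights stopped before converging and put 38.19 on AKR replicate 1. Under weights estimated gene by gene the calls were 3 and 3, where 3712 of the 22626 were called. With the arrays weighted equally, the lowest adjusted p of the 52 was 0.121, for Vcam1. At an unadjusted p under 0.05 there were 9 of the 34 genes, or 26.5%, against 25.2% of all genes, so the share was near the background. Of these 9, the 3 genes Eng, Plvap and Sox18 lay higher in AKR F1 and the other 6 in DBA F1 tumours, where each direction held 12.6% of all genes. The 6 were Vcam1, Ets1, Angpt2, Aqp1, Vegfc and Emcn. With 1 array left out these counts of 3 and 6 were 0 and 4 (AKR replicate 1), 2 and 4 (AKR replicate 2), 3 and 3 (AKR replicate 3) and 0 and 2 (DBA replicate 3), and 9 and 8 under array weights. In all, 16 of the 34 genes were higher in AKR F1 and 18 in DBA F1 tumours, while 54.8% of all genes were higher in AKR F1. Their median difference was -0.03, beside 0.05 for all genes. The median size of a difference, without its sign, was 0.34 for these genes and 0.28 for all genes. The values of both crosses did not overlap in 9 of 34 genes, or 26.5%, against 38.4% of all genes. AKR F1 lay above in 4 of them (23.2% of all genes) and DBA F1 in 5 (15.2%).

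**Figure D1:**
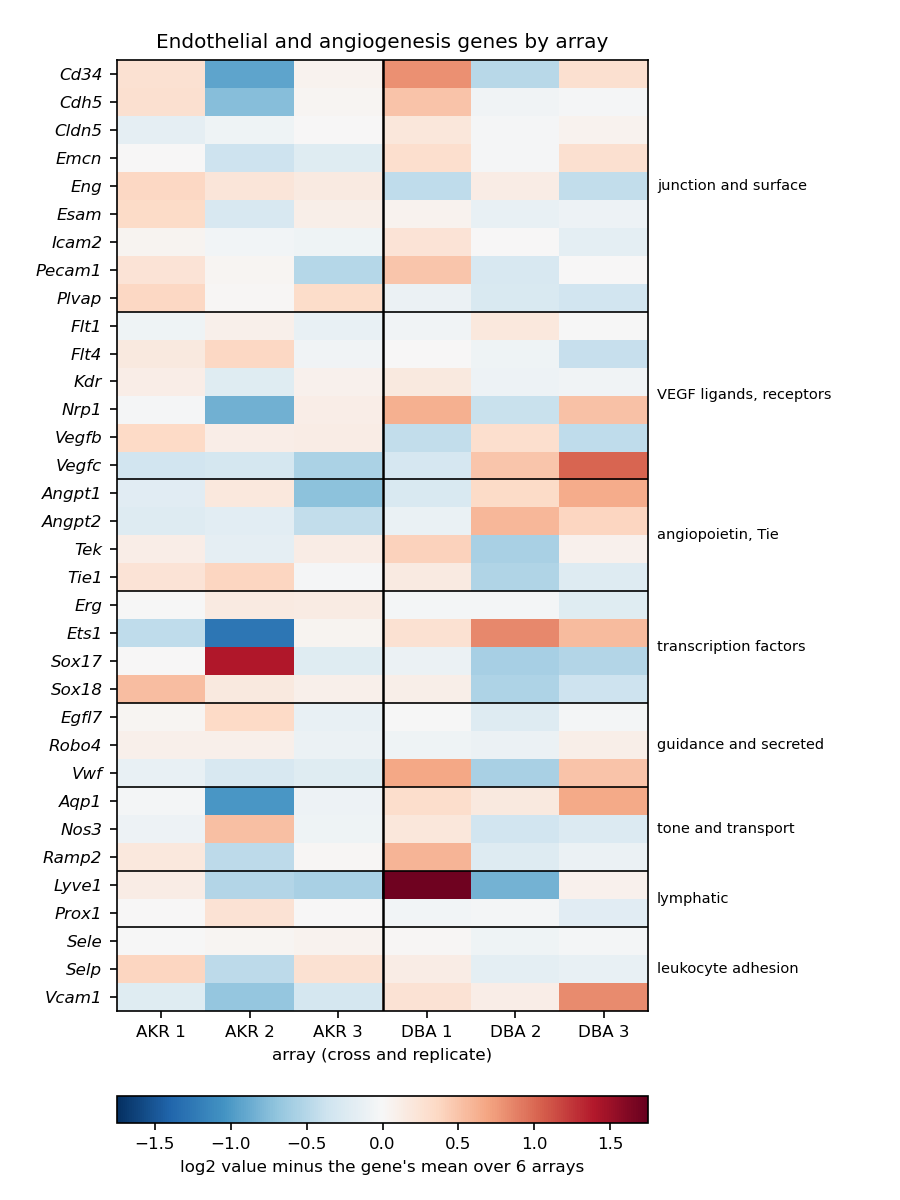
Each row is a gene and each column an array, with colour showing the log2 value minus the gene's own mean over the 6 arrays (red above, blue below). No block of red or blue covers all genes of a cross: 16 genes were higher in AKR F1 and 18 in DBA F1 tumours, and single arrays such as AKR replicate 2 and DBA replicate 1 stand out.

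The stretch of 250 bases before the start of transcription is shown for the genes with an unadjusted p under 0.05 that the promoter table holds, to set the letters of the ETS motif beside the values. Sequences are those of RefSeq, build GRCm38.p6, read 5′ to 3′ on the gene's strand. Capitals mark the ETS core motifs AGGAAG and CCGGAA on either strand (reverse complements CTTCCT and TTCCGG), which share the letters GGAA. The plus-strand windows are chr3:137340828-137341077 for Emcn, chr2:32646345-32646594 for Eng, chr6:55336049-55336298 for Aqp1 and chr8:54077282-54077531 for Vegfc.
Emcn: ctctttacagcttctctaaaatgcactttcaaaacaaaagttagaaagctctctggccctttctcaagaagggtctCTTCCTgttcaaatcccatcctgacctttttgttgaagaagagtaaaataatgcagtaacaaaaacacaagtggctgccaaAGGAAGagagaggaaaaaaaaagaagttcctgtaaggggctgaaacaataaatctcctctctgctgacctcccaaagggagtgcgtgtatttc
Eng: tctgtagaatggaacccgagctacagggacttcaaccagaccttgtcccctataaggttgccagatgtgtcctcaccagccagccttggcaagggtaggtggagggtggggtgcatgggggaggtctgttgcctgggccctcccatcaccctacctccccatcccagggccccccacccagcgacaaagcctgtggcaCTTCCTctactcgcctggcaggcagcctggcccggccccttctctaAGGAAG
Aqp1: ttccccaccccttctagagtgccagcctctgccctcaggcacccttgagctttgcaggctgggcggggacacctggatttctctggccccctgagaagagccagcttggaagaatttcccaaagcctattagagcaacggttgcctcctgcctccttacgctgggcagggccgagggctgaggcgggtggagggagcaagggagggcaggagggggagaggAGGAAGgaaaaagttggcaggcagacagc
Vegfc: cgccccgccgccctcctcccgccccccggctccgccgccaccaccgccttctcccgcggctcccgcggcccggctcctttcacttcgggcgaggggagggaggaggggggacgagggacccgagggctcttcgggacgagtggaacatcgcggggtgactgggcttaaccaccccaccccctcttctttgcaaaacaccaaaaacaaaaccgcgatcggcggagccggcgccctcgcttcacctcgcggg

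Emcn and Eng each held 2 matches, Aqp1 held 1, and Vegfc held 0. Emcn and Aqp1 lay higher in DBA F1 and Eng in AKR F1 tumours, so matches stood before genes of either direction. The promoter table held 19 of the 34 genes. Of these, 12 (63.2%) had AGGAAG in at least 1 window: Tie1, Cd34, Emcn, Eng, Egfl7, Robo4, Sele, Selp, Erg, Flt1, Nrp1 and Aqp1. Over all 27025 genes in the table the share was 32.3%. CCGGAA was present before 1 of the 19 genes, Kdr (5.26%), and before 13.6% of all genes. A match is a run of letters and not a measured binding site.

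Genes of endothelial junctions and surface went in both directions, with 3 of 9 higher in AKR F1 and 6 in DBA F1 tumours and a median difference of -0.15. The array mean of these 9 genes was 7.58 ± 0.22 in AKR F1 and 7.61 ± 0.18 in DBA F1 tumours (SD, 3 arrays each). Pecam1, an adhesion molecule of endothelial junctions, read 7.54, 7.33 and 6.80 on the AKR F1 arrays and 7.78, 7.02 and 7.30 on the DBA F1 arrays. Both crosses overlapped, and the difference of -0.15 had a 95% interval from -0.76 to 0.47.

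Cdh5, or VE-cadherin, which joins endothelial cells to each other, read 7.72, 6.69 and 7.47 in AKR F1 and 7.93, 7.37 and 7.41 in DBA F1 tumours. Its lowest value was on AKR replicate 2, and the difference was -0.28. A dimmer Cdh5 probe set went the other way, with a difference of 0.49 and no overlap between crosses. The tight junction gene Cldn5 differed by -0.15 (interval -0.43 to 0.13). Esam (0.11) and Icam2 (-0.04), both adhesion molecules of endothelial contacts, differed by less than 1 SE.

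Plvap, which forms the diaphragms of fenestrated capillaries, read 8.23, 7.89 and 8.18 in AKR F1 and 7.76, 7.60 and 7.53 in DBA F1 tumours. Each AKR F1 value was above each DBA F1 value, and the level was 1.39-fold higher in AKR F1 (log2 difference 0.47, interval 0.13 to 0.81, limma adjusted p = 0.129). Eng, a co-receptor for TGF-beta and BMP ligands on endothelium, read 9.05, 8.91 and 8.86 in AKR F1 and 8.25, 8.83 and 8.26 in DBA F1 tumours. The crosses did not overlap, with DBA replicate 2 just below the lowest AKR F1 value. The difference was 0.49 (interval 0.06 to 0.93, limma adjusted p = 0.167), where decile 8 had a median of -0.14, and a dimmer Eng probe set differed by 0.07.

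Emcn, a sialomucin of venous and capillary endothelium, read 7.42, 7.05 and 7.20 in AKR F1 and 7.70, 7.39 and 7.69 in DBA F1 tumours. AKR replicate 1 lay just above DBA replicate 2, so the crosses overlapped, and the difference was -0.37 (interval -0.73 to -0.01). Cd34, a sialomucin of endothelium and of stromal and blood progenitors, read 7.59, 6.40 and 7.39 against 8.13, 6.85 and 7.61. Within each cross replicate 2 was the lowest, and the spread inside a cross (SD 0.64 in each) was larger than the difference of -0.40 between crosses.

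**Figure D2:**
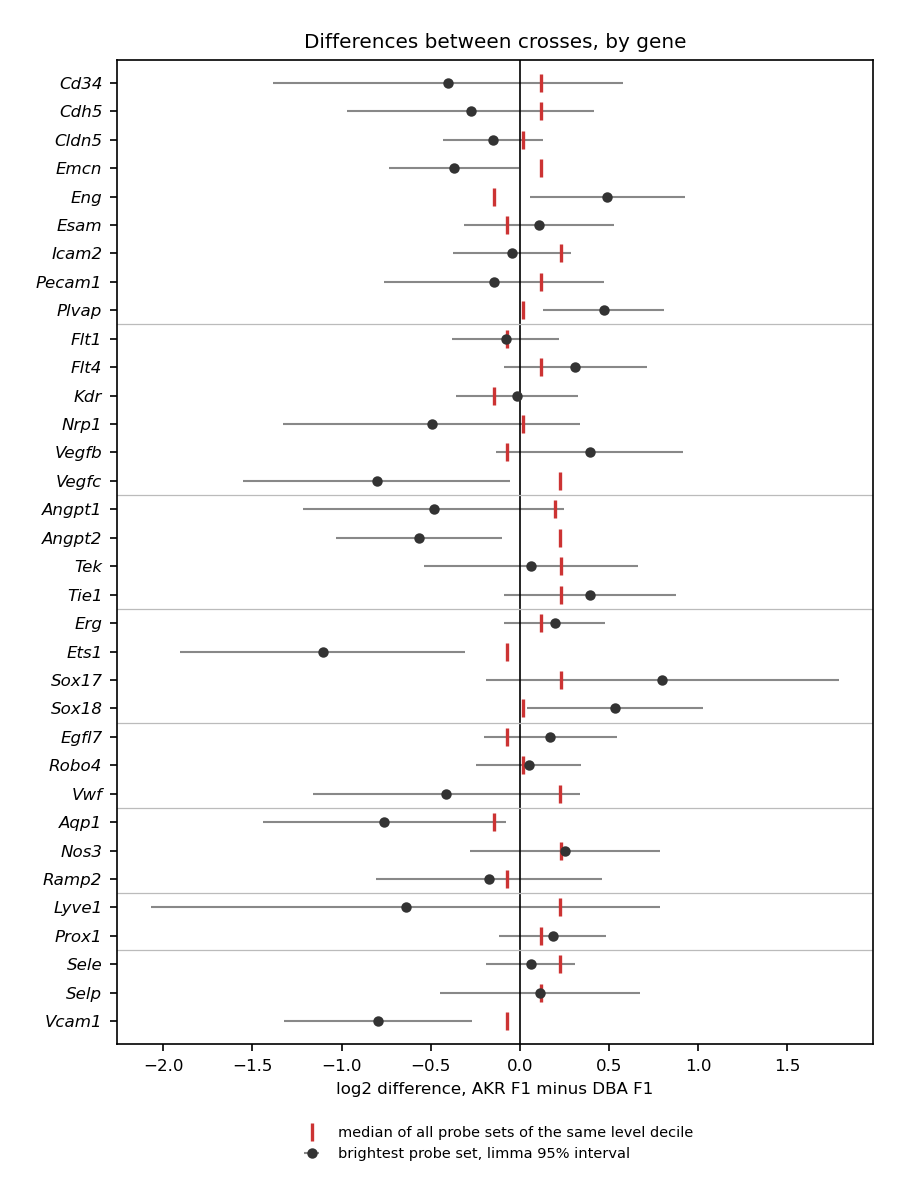
Points are log2 differences (AKR F1 minus DBA F1) of the 34 genes at their brightest probe set, lines are limma's 95% intervals, and red ticks are the median of all probe sets of the same decile of mean level. Ets1 lies furthest to the left at -1.11 and Sox17 furthest to the right at 0.80.

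Among the VEGF ligands and receptors, the receptors of blood vessels had the smallest differences, and the ligands went in different directions. Kdr, the main signalling receptor for VEGF-A, read 8.82, 8.49 and 8.77 in AKR F1 and 8.87, 8.61 and 8.64 in DBA F1 tumours. The difference of -0.01 had an interval from -0.36 to 0.33, and it was 0.11 after quantile normalization. Flt1, a receptor that also acts as a decoy for VEGF-A, differed by -0.08 at its brightest probe set (interval -0.38 to 0.22) and by -0.07 and 0.01 at the others. Its brightest probe set differed by 0.02 after quantile normalization.

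Flt4, the receptor for Vegfc, lay at 7.67 ± 0.21 in AKR F1 and 7.36 ± 0.21 in DBA F1 tumours, a difference of 0.31. Nrp1, a co-receptor for VEGF and semaphorins, read 7.93, 7.11 and 8.07 against 8.57, 7.56 and 8.46, with replicate 2 the lowest in both crosses. All 3 Nrp1 probe sets had negative differences (-0.49, -0.45 and -0.10), with overlap between crosses at each. At the brightest the difference ran from -0.81 (DBA replicate 2 left out) to -0.20 (AKR replicate 2 left out).

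Vegfc read 5.23, 5.26 and 5.02 in AKR F1 and 5.27, 6.06 and 6.59 in DBA F1 tumours. DBA replicates 2 and 3 lay well above all AKR F1 values, and DBA replicate 1 just above the highest of them. The difference was -0.80 (interval -1.55 to -0.05, limma adjusted p = 0.178), a 1.74-fold higher level in DBA F1 tumours. It was -0.49 without DBA replicate 3. The probe set lies in decile 2 of mean level, whose median difference was 0.23, and a value there can lie at background.

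Vegfb, a ligand of Flt1, was at 8.72, 8.48 and 8.49 in AKR F1 and at 7.93, 8.66 and 7.93 in DBA F1 tumours. DBA replicate 2 was level with the AKR F1 arrays and the other DBA F1 arrays lay below them (difference 0.39, interval -0.13 to 0.91). Vegfa, the central ligand of sprouting and a gene induced by low oxygen, read 8.63, 8.41 and 8.28 in AKR F1 and 8.06, 10.14 and 7.82 in DBA F1 tumours. It stood highest on DBA replicate 2, and the other DBA F1 arrays lay below all AKR F1 arrays. The difference of Vegfa was therefore -0.23 with all arrays and 0.50 without DBA replicate 2. When the Vegfa probe sets were averaged, it was -0.63 with all arrays.

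In the angiopoietin and Tie group, both ligands lay higher in DBA F1 and both receptors higher in AKR F1 tumours, and none passed. Angpt2, which loosens vessels as they sprout, read 5.42, 5.46 and 5.21 in AKR F1 and 5.54, 6.23 and 6.02 in DBA F1 tumours. Each DBA F1 value was above each AKR F1 value, and the difference was -0.57 (interval -1.03 to -0.10, limma adjusted p = 0.153). The Angpt2 probe set lies in decile 2 of mean level, whose median difference was 0.23, and a value there can lie at background. Angpt1, the steadying ligand made by mural and stromal cells, read 6.68, 7.07 and 6.15 against 6.61, 7.22 and 7.53. Its crosses overlapped, with a difference of -0.48 that became -0.24 when AKR replicate 3 was left out, -0.28 when DBA replicate 3 was, and -0.74 when DBA replicate 1 was.

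Tek, the receptor of both ligands, differed by 0.06 (interval -0.54 to 0.66), and by -0.09 after quantile normalization. It read 6.87, 5.89 and 6.54 on the DBA F1 arrays, a range wider than that of 6.31 to 6.59 on the AKR F1 arrays. Tie1, its partner receptor, read 6.73, 6.88 and 6.47 in AKR F1 and 6.65, 5.97 and 6.28 in DBA F1 tumours, a difference of 0.39 in a decile with a median of 0.23. On DBA replicate 2, where Vegfa was highest, Tek and Tie1 were at their lowest of the 6 arrays, and Flt1 at its highest (8.45). That array was the lowest for 26.5% of the 34 genes and for 14.8% of all genes.

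Of the 4 transcription factors, Ets1 lay higher in DBA F1 and Erg, Sox17 and Sox18 in AKR F1 tumours. Ets1, a factor of endothelium, lymphocytes and stroma, read 8.17, 7.34 and 8.66 in AKR F1 and 8.88, 9.44 and 9.16 in DBA F1 tumours. All DBA F1 values were above all AKR F1 values, with the lowest of all on AKR replicate 2. The level was 2.15-fold higher in DBA F1 tumours (log2 difference -1.11, interval -1.90 to -0.31, limma adjusted p = 0.13). The 3 other Ets1 probe sets differed by -0.37, 0.32 and -0.02, so they did not share this difference, and the mean of the 4 probe sets differed by -0.30. Erg, the ETS factor most typical of endothelium, differed by 0.20 (interval -0.09 to 0.48), with AKR F1 at 7.22 ± 0.09 and DBA F1 at 7.02 ± 0.10 and no overlap, in a decile with a median of 0.12.

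Sox18, a factor of arterial and lymphatic endothelium, read 8.29, 7.92 and 7.85 in AKR F1 and 7.86, 7.22 and 7.39 in DBA F1 tumours. DBA replicate 1 was level with AKR replicate 3, and the rest of the DBA F1 values lay lower (difference 0.53, interval 0.04 to 1.03, limma adjusted p = 0.176). Sox17, its relative in arterial endothelium, read 6.38, 7.78 and 6.16 against 6.27, 5.79 and 5.85. The high value on AKR replicate 2 set most of its difference, which was 0.80 with all arrays and 0.30 without that array. A dimmer Sox17 probe set differed by -0.14.

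**Figure D3:**
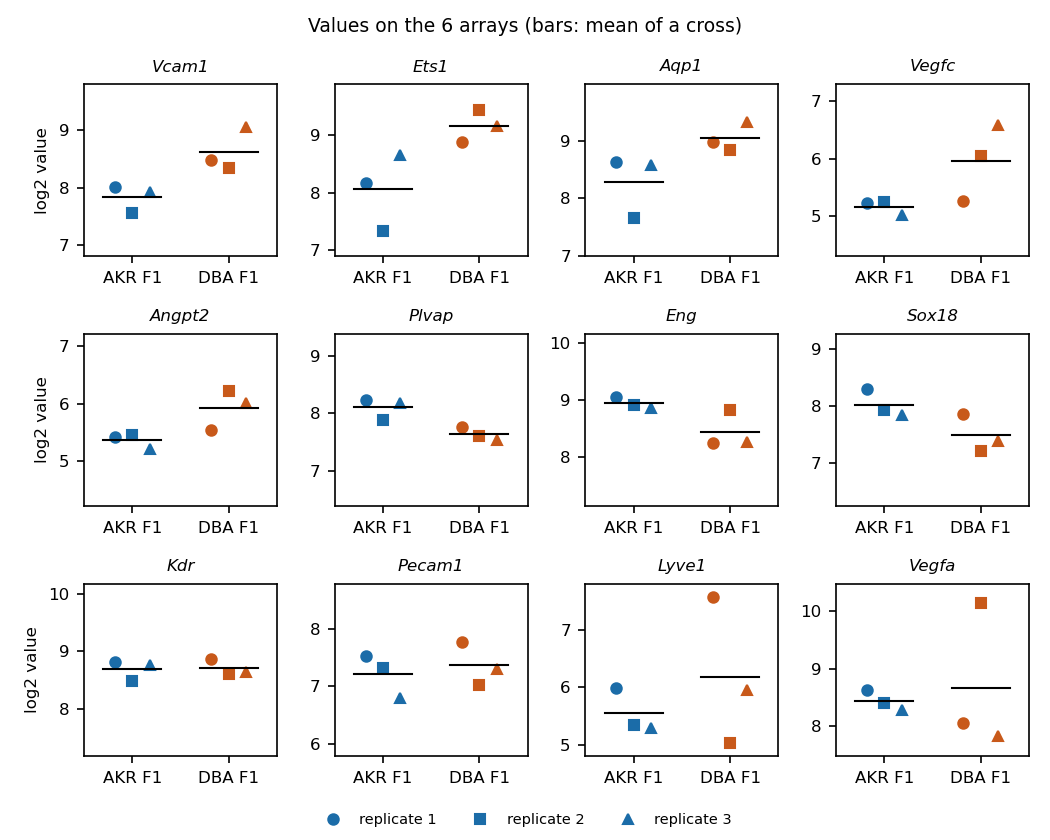
Points are log2 values on the 3 arrays of each cross, with the marker shape giving the replicate and bars the mean of a cross; each panel spans 3 log2 units, and levels are not comparable between panels. The crosses are apart for Vcam1, Ets1, Aqp1, Angpt2, Plvap and Eng, and overlap for Kdr, Pecam1, Lyve1, Sox18 and Vegfa, while for Vegfc DBA replicate 1 lies just above the highest AKR F1 array.

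Of the secreted and guidance genes, Egfl7, a matrix protein made by endothelium, had 4 probe sets with differences of 0.17, 0.26, 0.03 and 0.39. All had the same sign, and only at the dimmest did the crosses not overlap. Robo4, an endothelial guidance receptor, differed by 0.05 (interval -0.25 to 0.34). Vwf, the clotting factor stored in endothelial granules and platelets, read 5.49, 5.35 and 5.41 in AKR F1 and 6.30, 5.06 and 6.12 in DBA F1 tumours. Its DBA F1 values lay on both sides of those of AKR F1, and the difference of -0.41 became -0.80 without DBA replicate 2. The Vwf probe set also lies in decile 2 of mean level, where values may lie at background.

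Aqp1, a water channel of capillary endothelium, read 8.64, 7.65 and 8.58 in AKR F1 and 8.97, 8.84 and 9.33 in DBA F1 tumours. The crosses did not overlap, and the level was 1.69-fold higher in DBA F1 tumours (log2 difference -0.76, interval -1.44 to -0.08, limma adjusted p = 0.171). Without AKR replicate 2, its lowest array, the difference was -0.44. Nos3, the endothelial nitric oxide synthase, differed by 0.25 where its decile had a median of 0.23. Ramp2, which makes the calcitonin receptor-like protein a receptor for adrenomedullin, differed by -0.17 (interval -0.81 to 0.46).

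The lymphatic markers were dim. Lyve1, the hyaluronan receptor of lymphatic endothelium and of some macrophages, read 5.995, 5.35 and 5.30 in AKR F1 and 7.57, 5.04 and 5.95 in DBA F1 tumours. DBA replicate 1 was the highest of the 6 arrays and DBA replicate 2 the lowest. The difference of -0.64 thus rested on 1 array and was 0.05 without DBA replicate 1. A dimmer Lyve1 probe set differed by 0.06. Prox1, the factor that sets lymphatic identity, lay in decile 1 of mean level, at 4.60 ± 0.14 in AKR F1 and 4.42 ± 0.09 in DBA F1 tumours, without overlap. Its difference of 0.19 stood beside a decile median of 0.12. Values in deciles 1 and 2 may lie at background.

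Of the adhesion molecules that capture leukocytes, Vcam1 had the smallest p of all 34 genes. It read 8.01, 7.56 and 7.92 in AKR F1 and 8.47, 8.35 and 9.05 in DBA F1 tumours. Each DBA F1 value lay above each AKR F1 value, and the level was 1.74-fold higher in DBA F1 tumours (log2 difference -0.80, interval -1.32 to -0.27, limma adjusted p = 0.121). The other Vcam1 probe sets also lay higher in DBA F1 tumours, by differences of -1.03 with overlap and -0.12 without. Selp, or P-selectin, of endothelial granules and platelets, differed by 0.11 and by 0.35 at a dimmer probe set. Sele, or E-selectin, which endothelium makes when inflamed, read 5.24, 5.28 and 5.30 against 5.26, 5.17 and 5.22, in decile 2 of mean level. Its difference of 0.06 was -0.09 after quantile normalization.

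Vcam1 and Aqp1 are also made by cells other than endothelium, and markers of those cells were set beside them. Of 11 pericyte and mural markers, 8 lay higher in DBA F1 tumours and 5 of them at an unadjusted p under 0.05, where 12.6% of all genes did; none passed. The list median was -0.51, and leaving out 1 array moved it between -0.75 (DBA replicate 1) and -0.34 (AKR replicate 2). The array mean of that list ran from 7.89 to 8.29 in AKR F1 and from 8.47 to 9.06 in DBA F1 tumours. The members with the smallest p were Abcc9, a channel subunit of pericytes (-0.89), Myh11 (-1.23) and Acta2 (-2.06). Myh11 and Acta2 are contractile genes that myoepithelial cells also make. The 3 markers higher in AKR F1 tumours were Des (0.35), Cspg4 (0.25, without overlap) and Notch3 (0.20). None of the 9 macrophage markers had an unadjusted p under 0.05, against 25.2% of all genes. C1qa, with the smallest p, lay higher in AKR F1 tumours (0.54). The other 8 lay higher in DBA F1 tumours, where 54.8% of all genes lay higher in AKR F1, and the list median was -0.37. That median became -0.11 when DBA replicate 3 was left out, -0.15 for AKR replicate 2, -0.17 for DBA replicate 1 and -0.59 for AKR replicate 1, and it was -0.16 after quantile normalization. The list had means of 9.82, 8.90 and 9.64 in AKR F1 and 9.93, 9.28 and 10.05 in DBA F1 tumours. Of 8 fibroblast markers 5 lay higher in DBA F1 tumours, with a median of -0.05. Of 6 measured red cell markers 5 lay higher in AKR F1 tumours, with a list median of 0.28. The deciles of these 5 had medians between 0.12 and 0.23. Alas2 lay the other way (-1.15). The part of any of these cells in the differences of Vcam1 and Aqp1 was not tested.

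The genes also varied among the tumours of a cross. The mean of the 34 genes was 7.33, 7.13 and 7.18 on the AKR F1 arrays and 7.44, 7.16 and 7.32 on the DBA F1 arrays. DBA replicate 1 was the highest array for 12 of the 34 genes (35.3%), while it was the highest for 17.1% of all genes. It exceeded DBA replicate 2 in 26 of 34 genes, among them Pecam1, Cdh5, Cd34, Tek, Tie1, Vwf, Ramp2 and Lyve1, where 55.8% of all genes did. The 8 genes higher on DBA replicate 2 included Ets1 and the ligands Vegfb, Vegfc, Angpt1 and Angpt2. Vegfc and Angpt2 lie in decile 2 of mean level, where values may lie at background. Ligands outside the 34 genes went both ways: Pgf read 9.15 on DBA replicate 2 and 7.41 on DBA replicate 1, but Vegfd read 6.08 and 6.74. Of the 6 arrays, Angpt2 had its highest value on DBA replicate 2, as had Vegfa (10.14) and the adrenomedullin gene Adm (9.39), while Vegfc and Angpt1 had theirs on DBA replicate 3 and Vegfb on AKR replicate 1. In the other cross AKR replicate 1 exceeded AKR replicate 3 in 26 of 34 genes as well (58.1% of all genes).

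Markers of other cells also differed between these tumours. Skeletal muscle markers had an array mean of 11.84 on DBA replicate 1 and 6.32 on DBA replicate 2, and adipocyte markers 7.67 and 5.64. Fibroblast markers had 11.01 and 9.37, in the same direction, although DBA replicate 3 had 10.96. B cell and lymph node markers had 7.13 and 6.28, also in that direction, and 6.24 on DBA replicate 3. Pericyte and mural markers went the other way, with 8.47 and 9.06. Between AKR replicates 1 and 3 skeletal muscle markers ran against the 34 genes, with 8.85 and 9.999. The part of these cells in the level of the 34 genes on DBA replicate 1 was not tested. Red cell markers, by contrast, had 6.80 and 6.99, and platelet markers 6.93 and 6.96.

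**Figure D4:**
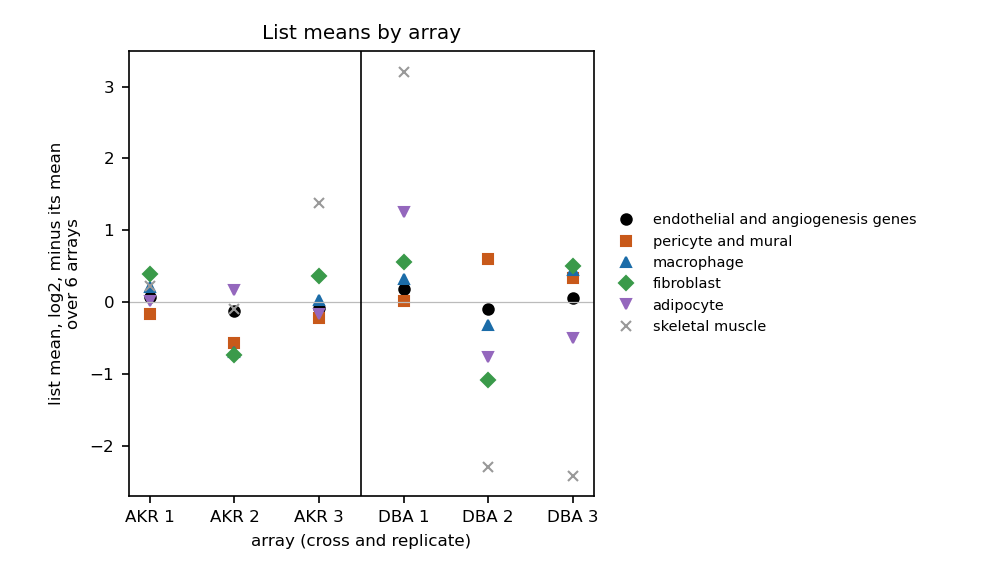
Points are the mean log2 value of each gene list on each array, minus that list's mean over the 6 arrays. Before centring, the mean of the 34 endothelial and angiogenesis genes ran from 7.13 to 7.44. That of skeletal muscle markers ran from 6.20 to 11.84. Over the 3 arrays of a cross, the mean of the 34 genes had an SD of 0.10 (AKR F1) and 0.14 (DBA F1). For the mean of all genes the SD was 0.02 in each cross. A list mean averages genes that went in opposite directions, so it does not show how far single genes varied.

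A further 81 genes of angiogenic signalling and endothelium were listed by role, of which 73 were measured. None passed by limma, 6 lay higher in AKR F1 and 11 in DBA F1 tumours at an unadjusted p under 0.05 (23.3%, against 25.2% of all genes), and the median difference was -0.01. Among the 9 measured genes of the VEGF axis the 3 with the smallest p were the co-receptor Nrp2 (0.27), the signalling enzyme Plcg1 (0.48) and the guidance ligand Sema3a (0.17), the last 2 in a decile with a median of 0.23. None of the 9 had an unadjusted p under 0.05.

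Inducers and inhibitors of angiogenesis lay mostly higher in DBA F1 tumours, 13 of 19, with a median of -0.48, where 54.8% of all genes lay higher in AKR F1. Adamts1, a protease with antiangiogenic activity, read 7.15, 6.67 and 6.74 in AKR F1 and 7.56, 8.59 and 8.69 in DBA F1 tumours (difference -1.43, limma adjusted p = 0.0955). Cxcl12, a chemokine of stroma and endothelium, lay at 8.29 ± 0.60 in AKR F1 and 9.55 ± 0.10 in DBA F1 tumours. Hif1a, an oxygen-regulated factor, differed by -0.76. In decile 10, which holds Hif1a, the median was -0.21.

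The Notch, ephrin and BMP genes lay higher in AKR F1 tumours in 10 of 14 cases (71.4%, against 54.8% of all genes), with a median of 0.17 beside decile medians of up to 0.23. Dll4, the Notch ligand of sprouting tip cells, read 7.94, 7.56 and 7.56 in AKR F1 and 7.01, 7.22 and 7.05 in DBA F1 tumours (difference 0.60, limma adjusted p = 0.107). Acvrl1, the BMP receptor that works with Eng, lay at 8.38 ± 0.33 in AKR F1 and 7.71 ± 0.07 in DBA F1 tumours. Its difference of 0.67 had the same sign as that of Eng. In both genes all AKR F1 values lay above those of DBA F1, as in 23.2% of all genes. At the dimmer Eng probe set the crosses overlapped, with a difference of 0.07. Hey1, a Notch target also made outside endothelium, lay the other way (-0.67, limma adjusted p = 0.0847).

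Among 31 further endothelial markers, 14 lay higher in AKR F1 and 17 in DBA F1 tumours, with a median of -0.05. The caveolar coat gene Cav1, which fat and stroma also make, read 8.64, 7.94 and 8.53 in AKR F1 and 9.69, 10.13 and 10.04 in DBA F1 tumours. Its level was 2.99-fold higher in DBA F1 tumours, with a limma adjusted p of 0.0661, the lowest of the 73. Lmo2, a cofactor of blood and endothelial factors, went the same way (-0.90), and the endothelial and blood factor Gata2 the other way (0.56).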

How the data were processed

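Tumour RNA of 6 samples, 3 per cross, was hybridised to 1 Affymetrix array each, and each sample's group was taken from its source name. Replicate numbers follow accession order and only name samples. The deposited table holds log2 values of 22690 probe sets. The submitters' processing notes list MAS5 as well as RMA, and which of them gave the table is unknown. Its log2 scale was inferred from the range of 3.65 to 14.73. A strain variant under a probe was not tested.

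The 64 control probe sets were left out. Of the other 22626, 20380 had 1 gene symbol, 691 several and 1555 none. Values were fitted as deposited by lmFit and eBayes of limma 3.58.1 (R 4.3.3; tests were two-sided), with Benjamini-Hochberg adjustment across the 22626 and a threshold of 0.05. The fit was run on simulated data with independent noise for each probe set and array. Such data hold no effect shared across an array, so they cannot show how the fit behaves under one. The number of arrays limits the precision.

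The genes and lists were chosen with earlier results of these data known. Named were all measured members, the 3 genes of each other list with the smallest p, and Vegfa. Adm, Pgf, Vegfd, Des, Cspg4 and Notch3 were named after their values were seen. Some named genes are not described in the results. For platelets they were Pf4 (-0.35), Itgb3 (0.33) and Gp1bb (0.22), and for red cells Epb42 (0.50) and Hba-a2 (0.33). For adipocytes they were Lipe (0.80), Lep (0.35) and Pck1 (-0.54), and for skeletal muscle Acta1 (2.49), Mb (-0.74) and Tnnc2 (1.81). For luminal epithelium they were Cldn3 (1.00), Elf3 (0.57) and Cldn7 (0.49), and for fibroblasts Postn (-0.96), Fbln2 (-1.02) and Col1a1 (1.09). For B cells and lymph node they were Madcam1 (0.55), Fcer2a (0.47) and Cd79a (0.39), and for macrophages Cd68 (-0.47) and Mrc1 (-1.11).

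Alternatives were each array left out in turn, quantile normalization, median centring, a threshold of 0.10, only probe sets above the median level, averaging a gene's probe sets, a trended robust prior, and array weights. Gene-by-gene array weights and leaving out AKR replicate 2 and DBA replicate 1 together were added after seeing the data. Python 3.11.15 with matplotlib 3.10.9 made the plots.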

Additional observations from a re-analysis of the deposited data

How the results depend on the processing

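No paired analysis was possible because the labels give the samples no replicate numbers shared between the crosses. The count of called probe sets over the whole table moved from 22 to 36 under quantile normalization, 102 among probe sets above the median level, 9969 under array weights, 3712 under gene-by-gene weights, 1 after averaging the probe sets of each gene and 810 at a threshold of 0.10. Leaving out both AKR replicate 2 and DBA replicate 1 gave 657. With each array left out in turn it ran from 1 to 263. The array weights stopped before converging and gave AKR replicate 1 a weight of 38.19 and AKR replicate 2 one of 0.1231. Of the 52 probe sets 12 were called higher in AKR F1 and 8 in DBA F1 under these weights, and 3 and 3 under gene-by-gene weights; every other setting run called 0. Of the 73 other pathway genes 1 passed above the median level, 31 and 12 under the weights, 5 without both arrays, 4 at 0.10, and 0 to 2 with 1 array left out.

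Of the 34 genes 21 kept their sign in every setting that measured them and 13 did not; 14 of the 15 settings measured all 34, and that of probe sets above the median level 15. Leaving out some array moved the difference by over 1.5 times, or turned it, for 26 of the 34. The sign turned under quantile normalization for Tek (-0.094), Sele (-0.092), Flt1 (0.019) and Kdr (0.11); under array weights for Cdh5 (0.16), Icam2 (0.065), Pecam1 (0.15), Kdr (0.12), Ramp2 (0.12) and Vegfa (0.24); and under gene-by-gene weights for Cdh5 (0.052), Icam2 (0.035), Kdr (0.096), Ramp2 (0.047) and Vegfa (0.18). Cdh5 was 0.11 when its probe sets were averaged. Without both arrays it turned for Cd34 (0.26), Cdh5 (0.21), Icam2 (0.072), Pecam1 (0.0075), Robo4 (-0.0097), Lyve1 (0.15), Kdr (0.17) and Ramp2 (0.27). With each array left out in turn, the differences that changed sign ran over these ranges: Esam (-0.033 to 0.27), Selp (-0.043 to 0.37), Cdh5 (-0.49 to 0.025), Kdr (-0.078 to 0.089), Ramp2 (-0.33 to 0.080), Pecam1 (-0.32 to 0.065), Icam2 (-0.14 to 0.062), Lyve1 (-1.21 to 0.052), Tek (-0.21 to 0.28) and Vegfa (-0.66 to 0.50). The list median of luminal markers was 0.36 under quantile normalization, and without both arrays luminal, macrophage and fibroblast medians were 0.32, 0.11 and 0.90. The cause of these changes was not tested. With 3 arrays a cross, differences smaller than the intervals given were not resolved.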
